A study of Rattus norvegicus with 30 samples.

Results

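The imprinted growth genes Igf2, H19, Dlk1, Mest, Peg3, Cdkn1c, Plagl1 and Grb10 were followed in rat heart from 8 to 78 weeks of age. Members were chosen by name: every row carrying one of the 8 symbols was taken from the authors' tables of 75th percentile scaled values. This gave 7 rows of 5 genes among the 25308 rows that all 3 tables share, with 2 rows for Igf2, 2 for Cdkn1c and 1 each for H19, Plagl1 and Grb10. Dlk1, Mest and Peg3 had 0 rows. The samples were whole hearts of F344 rats, an inbred strain, left untreated, in 6 groups of 5 rats: females and males at 8 weeks (young), 21 weeks (adult) and 78 weeks (old). All animals came from one breeding colony and carried no transgene, and each heart was ground and hybridized on its own Agilent 1-color array. The youngest age was already past weaning. Therefore, the decline from fetal levels was not observed here, only what followed it.

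An imprinted gene is transcribed mainly from the allele of one parent. Many imprinted genes act on fetal growth: paternally expressed genes such as Igf2, Dlk1, Mest, Peg3 and Plagl1 tend to promote it or to be needed for it, and maternally expressed genes such as Cdkn1c, Grb10 and H19 tend to restrain it. In rodents most of them are abundant in the embryo and fall steeply after birth in many organs, the heart included. The arrays measure total RNA of a gene and do not tell the parental alleles apart.

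The probe sequences are shown first because they decide which transcript each value stands for. The Igf2 probe lies at chr1:203094707-203094766 on the minus strand of build rn3, the build named in the scanner files. The other row named Igf2 comes from an expressed sequence tag (EST), whose probe lies at chr1:203094747-203094806 on the plus strand, that is, on the opposite strand of the same locus. The probes overlap by 20 bases, printed in capitals in the first 30 bases of each (chr1:203094737-203094766 and chr1:203094747-203094776). The runs in capitals are reverse complements of each other.
Igf2 probe: TTCTGGCAAAATCCAAAGCTtgggttttgt
EST probe: AGCTTTGGATTTTGCCAGAAaatgcatgtt
H19, a long noncoding RNA, was read by a single probe 84.6 kb from that of Igf2, at chr1:203010045-203010104 on the minus strand. Its 60 bases are given whole because the gene has no protein product by which to recognize it.
H19 probe: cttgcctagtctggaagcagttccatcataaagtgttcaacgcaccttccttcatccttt
Grb10 was read by 3 probes on the minus strand of chromosome 14, which span 38.2 kb and were averaged into 1 row of the tables. Their first 30 bases are given because the probes did not move alike with age. The positions of these stretches, in the order printed, are chr14:92834759-92834788, chr14:92836216-92836245 and chr14:92872854-92872883.
Grb10 probe: gactctggttcacaattttgtacgtagctg
Grb10 probe: gtgtcaaccgcagttgacaccaagcatgtt
Grb10 probe: gcttcaagtcctaatgaacaacgatattaa
The 4 Cdkn1c probes lie 893.8 kb from Igf2 on the minus strand of chromosome 1. The downstream row averages the probes at chr1:203988641-203988666 and chr1:203988794-203988853. The upstream row averages those at chr1:203989517-203989576 and chr1:203990145-203990204. The Plagl1 probe lies at chr1:7921813-7921873 on the plus strand. No annotation of build rn3 was used here, so exon and untranslated region assignments are not given.

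Values are log2 of the processed signal relative to the 75th percentile of the same array, so 0 is the level of that percentile. The level of a member is compared only within a row, since probes differ in how brightly they bind. Sums over cell type markers, given below, add the linear levels of several rows and so follow the brightest of them. Between 17182 and 24290 of the 45018 spots of an array were well above background, and the 75th percentile signal ran from 39.9 (male replicate 2 at 21 weeks) to 171.3. All 10 cardiomyocyte markers were well above background on at least 24 of the 30 arrays. The 21-week arrays were on slides of their own, so age and slide cannot be told apart in a comparison with 21 weeks. All 8-week arrays were scanned on scan day 1 and all 21-week arrays on scan day 2. Age and scan day therefore cannot be told apart between 8 and 21 weeks either. The 8-week arrays shared a scan day with 6 of the 10 arrays at 78 weeks and shared 1 slide with that age. The authors ran the ages in different batches and for that reason did not test age. On 2 of the 78-week arrays Y-linked RNA went against the label: Ddx3y was -0.90 in the library labelled female replicate 2 and -5.48 in the library labelled male replicate 3, while the other 78-week females ran from -5.64 to -5.36 and the other males from -1.28 to -0.87. Calls within a sex that rest on these 2 arrays are given with and without them. The labels do not say more about the rats than sex and age. A limma p-value between ages rests on the spread between hearts of the same group, pooled over the 6 groups. Between the sexes it rests on the hearts of a single age. In both, limma also draws the spread of a row toward that of the other rows.

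Igf2, the growth factor itself, fell at each step of age. In females it was 4.54, 4.22, 4.37, 4.31 and 4.50 in the 5 hearts at 8 weeks, 4.05, 4.12, 4.23, 4.12 and 4.25 at 21 weeks, and 3.51, 3.58, 3.61, 4.22 and 3.56 at 78 weeks. In males it was 4.54, 4.61, 4.64, 4.68 and 4.52 at 8 weeks, 3.94, 4.00, 4.20, 4.07 and 4.06 at 21 weeks, and 3.73, 3.55, 3.28, 3.67 and 4.02 at 78 weeks. Every heart at 78 weeks was below every heart at 8 weeks, although female replicate 4 only just so. Over both sexes the mean was 4.49 ± 0.15 (SD, n = 10), 4.10 ± 0.10 and 3.67 ± 0.27 at 8, 21 and 78 weeks. The level fell by 0.82 ± 0.09 (SE) on the log2 scale from 8 to 78 weeks, a 1.77-fold decrease (limma adjusted p = 1.08e-07). Both steps passed the test, with a 1.31-fold decrease from 8 to 21 weeks (limma adjusted p = 0.00053) and a 1.35-fold decrease from 21 to 78 weeks (limma adjusted p = 0.000172). The second step fell short when the scan day was a term of the fit (difference -0.24, limma adjusted p = 0.0676). With normexp background correction neither step passed (limma adjusted p = 0.0644 and 0.739), while the difference between 78 and 8 weeks did (-1.13, limma adjusted p = 0.0285). Between 8 and 78 weeks the difference was -0.95 among the arrays of scan day 1 and -0.89 on the slide that both ages shared.

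The Igf2 decline over the whole span was called in both sexes, although from 8 to 21 weeks the female difference on its own was -0.23 (limma adjusted p = 0.203). From 8 to 78 weeks it was 1.61-fold in females (limma adjusted p = 0.000826) and 1.93-fold in males (limma adjusted p = 7.54e-06), and the 2 groups did not overlap in either sex (exact permutation p = 0.00794 in each, the smallest that 5 against 5 allows), as in 3.78% of all rows in females and 5.63% in males. Without the 2 arrays that went against their label it was 1.58-fold in females (limma adjusted p = 0.00154) and 1.81-fold in males (limma adjusted p = 4.4e-05). Of all rows, 1.47% lay lower in every heart at 78 weeks than in every heart at 8 weeks. Igf2 was the only member row to do so. All 30 arrays had Igf2 well above background, so the gene fell but remained measurable in old heart. The EST row on the opposite strand was well above background on 1 of 30 arrays, with values from -5.97 to -3.21, and its difference between 78 and 8 weeks was -0.18 (limma adjusted p = 0.725). At this locus the measurable signal was thus that of the Igf2 strand.

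H19, the maternally expressed RNA that shares enhancers and an imprinting control region with Igf2, also fell, but its course was less even. In females the 5 hearts gave 3.61, 3.43, 3.71, 3.65 and 3.72 at 8 weeks, 3.47, 3.36, 3.40, 3.36 and 3.43 at 21 weeks, and 2.86, 2.98, 2.93, 3.54 and 2.84 at 78 weeks. In males they gave 3.70, 3.79, 3.79, 3.80 and 3.61 at 8 weeks, 3.08, 2.73, 3.17, 3.22 and 2.63 at 21 weeks, and 3.15, 3.04, 2.74, 3.17 and 3.31 at 78 weeks. Female replicate 4 at 78 weeks was again the highest of its group and was the sole 78-week heart to reach into the 8-week range. From 8 to 78 weeks H19 fell by 0.62 ± 0.09 (SE) on the log2 scale, a 1.54-fold decrease (limma adjusted p = 1.79e-05). The decrease was 1.51-fold in females (limma adjusted p = 0.00569) and 1.57-fold in males (limma adjusted p = 0.00151), and without the 2 arrays that went against their label 1.5-fold (limma adjusted p = 0.01) and 1.48-fold (limma adjusted p = 0.00816). From 8 to 21 weeks it was 1.41-fold (limma adjusted p = 7.81e-05). Levels at 21 and 78 weeks did not pass the test, with a difference of -0.13 and a 95% interval from -0.32 to 0.05 (limma adjusted p = 0.251). That difference was called when female replicate 4 at 78 weeks was left out (-0.19, limma adjusted p = 0.0438), and its sign turned when the scan day was a term of the fit (0.03).

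**Figure D1:**
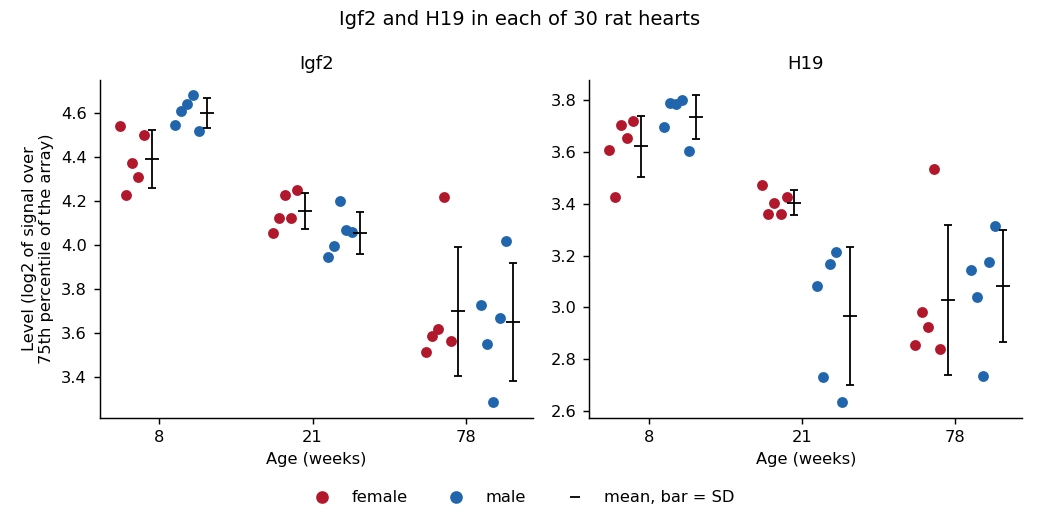
Igf2 and H19 in each of 30 rat hearts, as log2 of the processed signal relative to the array's 75th percentile, against age in weeks, with females and males apart and the mean and SD of 5 hearts in each group. Igf2 steps down at each age (10-heart means 4.49, 4.10 and 3.67), and 1 female at 78 weeks stands above the rest of its group in both genes.

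H19 was also followed in each sex. From 8 to 21 weeks the male difference was -0.77 (limma adjusted p = 3.96e-05) and the female difference -0.22 (limma adjusted p = 0.271). The interaction of sex and age had an unadjusted limma p of 0.00491 and an adjusted p of 0.307, and so did not pass. From 21 to 78 weeks the female difference was -0.38 (limma adjusted p = 0.0441) and the male difference 0.12 (limma adjusted p = 0.493), and the interaction again did not pass (limma adjusted p = 0.204). Without the 2 arrays that went against their label the female difference was -0.37 and no longer called (limma adjusted p = 0.0724), the male difference 0.20 (limma adjusted p = 0.228) and the interaction not called (limma adjusted p = 0.164). None of the 7 member rows was called for an interaction in the 3 age comparisons with limma, against 1, 1 and 0 of 25308 rows (0.00395%, 0.00395% and 0%). At an unadjusted p under 0.05 the interaction of H19 passed in both steps and that of the upstream Cdkn1c row from 8 to 78 weeks (0.00448). The share of all rows passing that threshold is not given here, so these are a description and not calls.

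In whole heart, fewer cells of a type and less RNA per cell cannot be told apart. Among 9 fibroblast markers, 3 fell from 8 to 78 weeks (Col1a1, Col1a2 and Col3a1, which code for chains of fibrillar collagen) and 0 rose. Thy1 was well above background on 0 arrays, and the other 8 markers were so on all 30. The summed linear level of the fibroblast markers, in multiples of the 75th percentile, was 368 to 487 at 8 weeks, 207 to 279 at 21 weeks and 159 to 309 at 78 weeks. From 8 to 21 weeks 5 of these markers were called lower and 3 higher (Dcn, Tcf21 and Thy1). The brightest, Col3a1 and Dcn (mean log2 levels 6.68 and 6.54), differed by -1.56 and 0.33 between these ages. Of 8 endothelial markers 3 fell and 0 rose from 8 to 78 weeks, with sums of 112 to 162 at 8 weeks and 101 to 131 at 78 weeks. These sums follow mainly Kdr, with a mean log2 level of 6.7, against 1.37 for Emcn, the next brightest. Sums of the mesothelial markers, of which Lrrn4 was detected on 3 arrays, were 13.3 to 21.1 at 8 weeks and 6.27 to 16.1 at 78 weeks. Of 6 smooth muscle and pericyte markers 2 fell and 0 rose, with sums of 71.3 to 91.6 and 54.9 to 98.3. Of 6 adipocyte markers 0 fell and 1 rose, with a median difference of 1.31 and sums of 53.7 to 114 and 60.4 to 225. The sums of the 10 cardiomyocyte markers were 2990 to 4470 and 3760 to 5180. The part of these shifts in the decline of Igf2 and H19 was not tested.

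Igf2 and H19 also varied together among hearts of the same sex and age. Each value was taken as its deviation from the mean of its group, so age and sex did not enter. Over the 30 hearts the deviations correlated with Pearson r = 0.77 (permutation within groups, p = 0.00035, adjusted p = 0.0035 over 10 pairs of members) and Spearman rho = 0.65 (p = 0.00193, adjusted p = 0.0193). Without the 2 hearts farthest from the median in Igf2, female replicate 4 and male replicate 5 at 78 weeks, r was 0.62. At 8, 21 and 78 weeks on their own r was 0.66, 0.23 and 0.97 over 10 hearts each. Without female replicate 4 it was 0.95 over the other 9 hearts at 78 weeks, so the relation at that age did not rest on it. Among 16430 other rows, only 3 had a correlation with Igf2 at or above that of H19. None of the other 9 pairs among Igf2, H19, the downstream Cdkn1c row, Plagl1 and Grb10 had an adjusted p under 0.336. With normexp background correction, however, the pair did not stand apart: r was 0.95 for Igf2 and H19, but also 0.85 for Igf2 and the downstream Cdkn1c row, 0.82 for H19 and that row, -0.92 for Igf2 and Plagl1 and -0.89 for H19 and Plagl1.

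**Figure D2:**
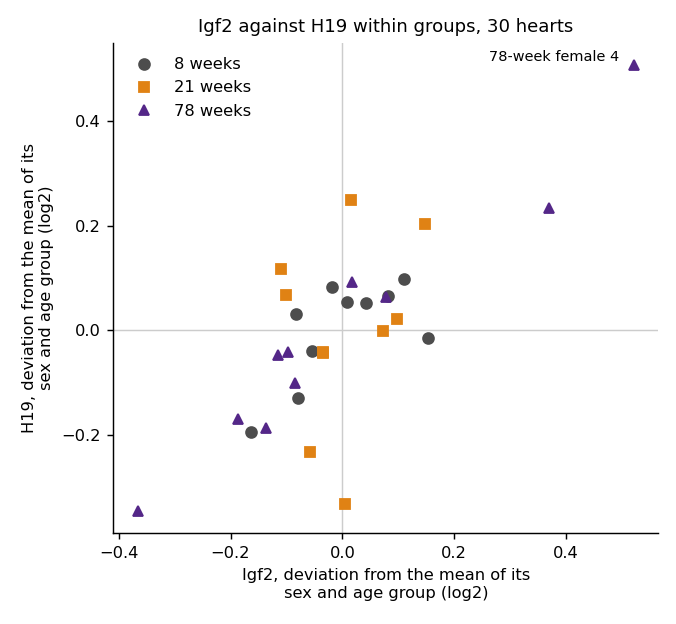
Deviation of H19 against deviation of Igf2 from the mean of the heart's own sex and age group, both on the log2 scale, for 30 hearts marked by age. The points follow a rising line (r = 0.77), the 78-week hearts most closely (r = 0.97), with female replicate 4 at 78 weeks at the upper end.

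In female replicate 4 at 78 weeks, the marker sum was the lowest among the 5 females of that age in 8 of 10 cell type lists, all but those of cardiomyocytes and adipocytes. The fibroblast sum was 159 against 220 to 258 in the others, the smooth muscle and pericyte sum 67 against 81.7 to 98.3, the mesothelial sum 6.27 against 11.4 to 14.3, the endothelial sum 101 against 110 to 121 and the erythroid sum 219 against 270 to 283. Its cardiomyocyte sum of 4630 lay within the range of the group, 3760 to 4780. Their part in the high Igf2 and H19 of this heart was not tested.

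Cdkn1c moved the other way. It encodes p57Kip2, an inhibitor of cyclin-dependent kinases that holds cells out of division. In the upstream row the 5 females gave 0.38, 0.49, 0.56, 0.56 and 0.47 at 8 weeks, 0.80, 0.89, 0.67, 0.80 and 1.04 at 21 weeks, and 0.87, 1.19, 0.73, 0.41 and 0.61 at 78 weeks. The males gave 0.40, 0.44, 0.49, 0.46 and 0.40 at 8 weeks, 0.68, 1.29, 1.10, 1.15 and 0.91 at 21 weeks, and 1.47, 1.21, 0.87, 1.49 and 1.32 at 78 weeks. All 10 hearts at 21 weeks were above all 10 at 8 weeks, as in 5.07% of all rows. The row rose 1.38-fold from 8 to 21 weeks (limma adjusted p = 0.000166) and was 1.47-fold higher at 78 than at 8 weeks (difference 0.55 ± 0.09 SE, limma adjusted p = 0.000102). From 21 to 78 weeks the difference was 0.09, with a 95% interval from -0.10 to 0.27. In males it was 0.25 (limma adjusted p = 0.127) and in females -0.08 (limma adjusted p = 0.77). Without the 2 arrays that went against their label it was called in males (0.35, limma adjusted p = 0.0155). The female difference was then -0.18 (limma adjusted p = 0.319), and the interaction was not called (limma adjusted p = 0.139).

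The downstream row rose 1.28-fold from 8 to 21 weeks (limma adjusted p = 0.00187) and was 1.29-fold higher at 78 than at 8 weeks (limma adjusted p = 0.00501). Its 10-heart means were 2.05 ± 0.11 (SD), 2.41 ± 0.24 and 2.42 ± 0.27 at the 3 ages, and the ranges overlapped. From 8 to 21 weeks the rise was called in males but not in females in both rows. Downstream it was 1.44-fold in males (limma adjusted p = 0.00138) and 1.13-fold in females (limma adjusted p = 0.361). Upstream it was 1.5-fold in males (limma adjusted p = 0.000673) and 1.27-fold in females (limma adjusted p = 0.0761). In males all 5 hearts at 78 weeks were above all 5 at 8 weeks in both rows, as in 5.84% of all rows. In both rows the rise from 8 to 78 weeks was called in males but not in females, at 1.78-fold upstream (limma adjusted p = 0.000101) and 1.46-fold downstream (limma adjusted p = 0.00658) for males. In females it was 1.21-fold (limma adjusted p = 0.289) and 1.14-fold (limma adjusted p = 0.489). The difference between the sexes in this rise did not pass (interaction, limma adjusted p = 1 in both rows). These values rest in part on the 2 arrays that went against their label, since the one labelled female was the highest female in both rows and the one labelled male the lowest male. Without them the rise was 1.91-fold upstream (limma adjusted p = 5.4e-06) and 1.54-fold downstream (limma adjusted p = 0.00212) in males. In females it was 1.12-fold (limma adjusted p = 0.534) and 1.08-fold (limma adjusted p = 0.751), and the interaction was again not called (limma adjusted p = 0.138 upstream and 0.69 downstream). With normexp background correction neither row was called from 8 to 21 weeks (limma adjusted p = 0.0745 upstream and 0.94 downstream) or from 8 to 78 weeks, at 0.32 upstream (limma adjusted p = 0.0631) and 0.06 downstream (limma adjusted p = 0.782).

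Grb10 and Plagl1 were lowest at 21 weeks and higher on both sides of it. Grb10 is an adaptor that binds the insulin and IGF1 receptors and dampens their signal. Its row, which the scanner files name RGD1566234_predicted, was -1.05, -0.78, -0.78, -1.17 and -0.89 in females at 8 weeks, -1.62, -2.61, -1.5, -1.71 and -1.99 at 21 weeks, and -1.73, -1.34, -1.27, -1.20 and -0.99 at 78 weeks. The males gave -0.73, -0.62, -1.09, -1.08 and -0.55 at 8 weeks, -1.54, -2.12, -2.30, -2.04 and -2.79 at 21 weeks, and -1.28, -0.87, -1.23, -1.02 and -0.81 at 78 weeks. All hearts at 21 weeks lay below all hearts at 8 weeks, as in 4.38% of all rows. The row fell 2.22-fold from 8 to 21 weeks (limma adjusted p = 4.89e-07) and rose 1.80-fold from 21 to 78 weeks (limma adjusted p = 2.23e-05). The fall was 1.94-fold in females (limma adjusted p = 0.00217) and 2.54-fold in males (limma adjusted p = 1.16e-05). The rise was 1.49-fold in females (limma adjusted p = 0.0481) and 2.17-fold in males (limma adjusted p = 7.11e-05). Without the 2 arrays that went against their label the female rise was 1.5-fold and no longer called (limma adjusted p = 0.0838). The male rise was then 2.25-fold (limma adjusted p = 0.000191). Between 78 and 8 weeks the row differed by -0.30, with a 95% interval from -0.59 to -0.01 (limma adjusted p = 0.161). That last difference was called among the arrays of scan day 1 (-0.41, limma adjusted p = 0.0175) and from the authors' tables joined (-0.40, limma adjusted p = 0.0448), and the rise after 21 weeks was not with normexp background correction (0.17, limma adjusted p = 0.172).

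The 3 Grb10 probes were then tested on their own among 41012 probes, an analysis added after the values of the row had been seen. The probe at chr14:92834729-92834788, the first of those printed, was lower at both later ages. Its 10-heart means were 1.82 ± 0.10 (SD), 1.21 ± 0.31 and 1.15 ± 0.13, a 1.53-fold decrease from 8 to 21 weeks (limma adjusted p = 1.06e-06) and a 1.60-fold decrease from 8 to 78 weeks (limma adjusted p = 7.88e-07). From 8 to 21 weeks the male difference was -0.89 (limma adjusted p = 2.39e-06). The female difference was -0.34 and not called (limma adjusted p = 0.0569). The probe at chr14:92872824-92872883 fell and came back. Its means were -0.70 ± 0.34, -2.89 ± 0.75 and -0.83 ± 0.36, a 4.56-fold decrease from 8 to 21 weeks (limma adjusted p = 5.93e-08) and a 4.17-fold increase from 21 to 78 weeks (limma adjusted p = 1.04e-07). It was well above background on 10, 7 and 10 hearts at the 3 ages. The middle probe, at chr14:92836186-92836245, was well above background on 3, 0 and 2 hearts. The drop at 21 weeks was thus largest in the third probe printed, while the first was lower at both later ages.

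**Figure D3:**
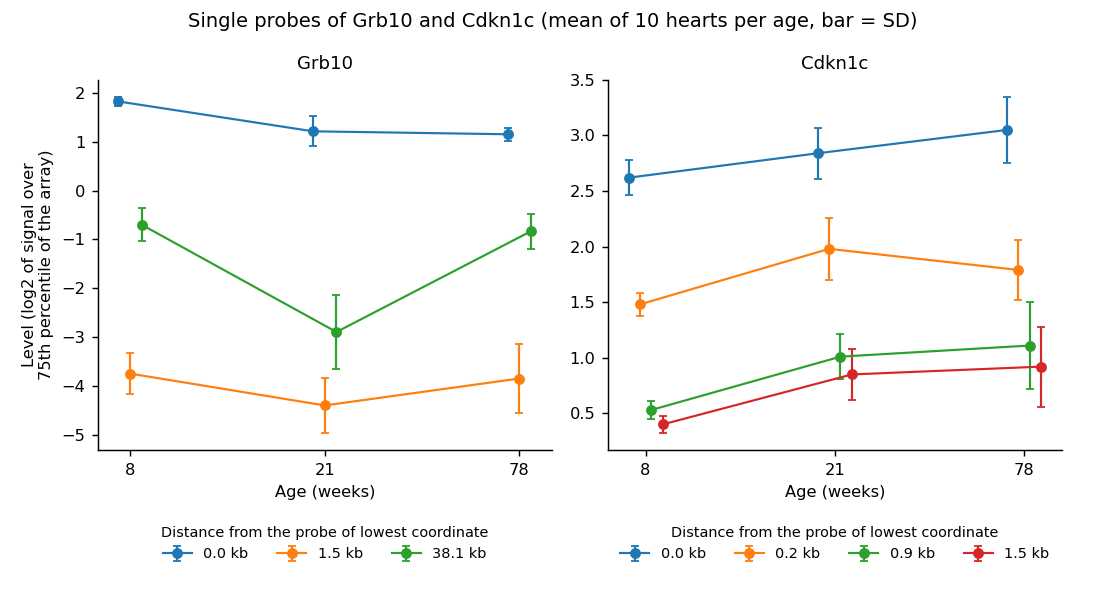
Single probes of Grb10 and Cdkn1c, as log2 signal relative to the array's 75th percentile, against age in weeks, each point the mean of 10 hearts with its SD and each line named by its distance from the probe of lowest coordinate. In Grb10 the probe of lowest coordinate is lower at both later ages (1.82, 1.21 and 1.15) while the farthest dips at 21 weeks (-0.70, -2.89 and -0.83), and the 4 Cdkn1c probes are all higher at 78 than at 8 weeks.

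The 4 Cdkn1c probes were treated in the same way. All were higher at 78 than at 8 weeks, by 0.31 and 0.43 in the downstream pair and by 0.58 and 0.52 in the upstream pair. Of these 3 passed the test on their own (limma adjusted p = 0.00311, 0.000171 and 0.000668), and the probe at chr1:203988794-203988853 did not (limma adjusted p = 0.0604).

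Plagl1, a zinc finger transcription factor also known as Zac1, was close to background. It was well above background on 8 of 10 hearts at 8 weeks, 2 of 10 at 21 weeks and 9 of 10 at 78 weeks. Its range was -3.77 to -2.09 at 8 weeks, -4.99 to -3.00 at 21 weeks and -3.49 to -2.25 at 78 weeks, so all ages overlapped. The mean was 0.94 lower at 21 than at 8 weeks (limma adjusted p = 0.00153) and 0.92 higher at 78 than at 21 weeks (limma adjusted p = 0.00191) on the log2 scale. With 8 of the 10 hearts at 21 weeks not well above background, the size of these differences is not a measured fold. Both differences were called in males (limma adjusted p = 0.00331 and 0.0065) and neither in females (limma adjusted p = 0.189 and 0.148). Without the 2 arrays that went against their label, the second was again called in males (limma adjusted p = 0.0254) and not in females (limma adjusted p = 0.169). Between 78 and 8 weeks the difference was -0.03, with a 95% interval from -0.50 to 0.45. The decrease at 21 weeks was absent with normexp background correction (0.17) and with the raw median signal (0.03), and the rise from 21 to 78 weeks was called under neither (limma adjusted p = 1 and 0.429).

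**Figure D4:**
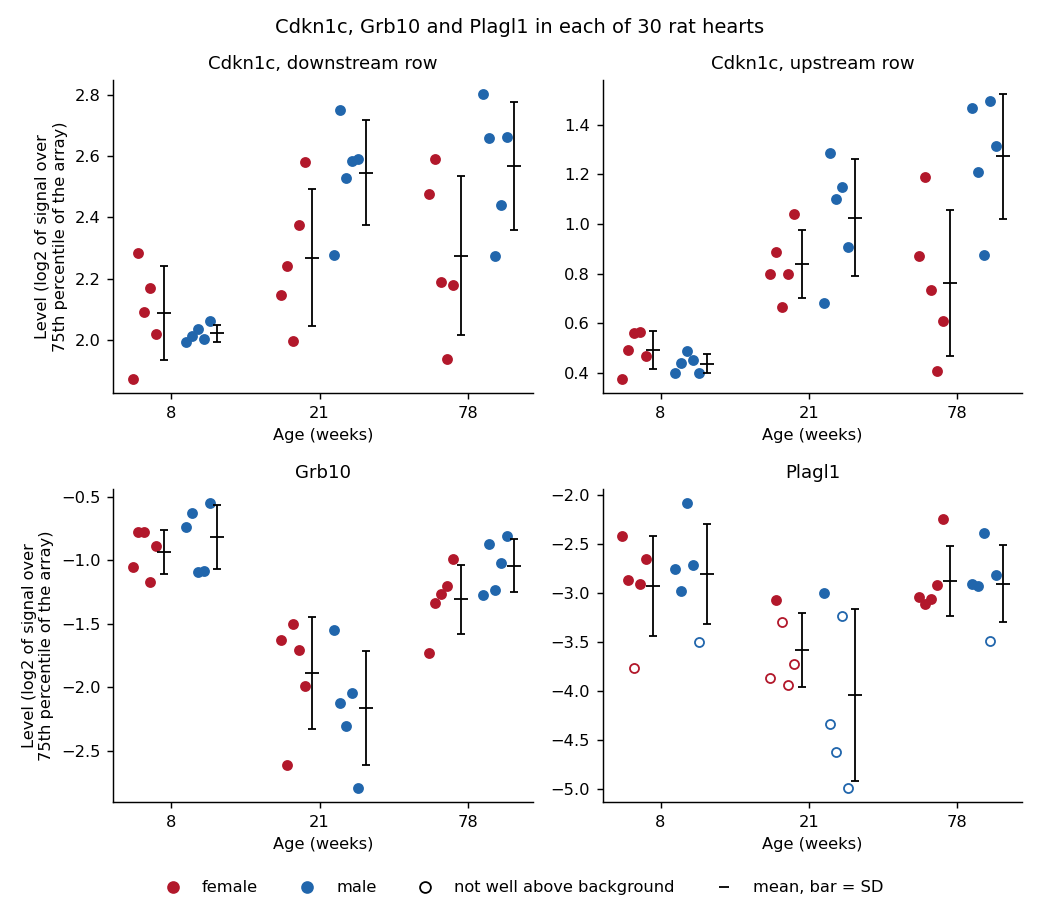
Both Cdkn1c rows, Grb10 and Plagl1 in each of 30 rat hearts, as log2 of the processed signal relative to the array's 75th percentile, against age in weeks, with females and males apart, the mean and SD of 5 hearts, and open markers where the row was not well above background. The Cdkn1c rows are higher after 8 weeks, Grb10 dips at 21 weeks, and Plagl1 is mostly below the background limit at 21 weeks.

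Counted together, 6 of the 7 member rows were called between 8 and 21 weeks (4 lower and 2 higher at the older age), against 49.4% of all rows (19.8% lower and 29.6% higher). Between 21 and 78 weeks 3 were called (1 lower, 2 higher), against 43.5% of all rows (24% lower and 19.5% higher). Between 8 and 78 weeks 4 were called, against 14.8% of all rows: Igf2 and H19 lower and both Cdkn1c rows higher. The shares of all rows called lower and higher in this last comparison were 6.89% and 7.90%. In females on their own 1, 3 and 2 rows were called in the 3 comparisons, against 12.7%, 15.2% and 4.12% of all rows. In males 6, 3 and 4 were called, against 46.1%, 41.2% and 6.54%. Without the 2 arrays that went against their label the counts were 2, 1 and 2 in females and 6, 4 and 4 in males. Of all 25308 rows, 3026, 2588 and 956 were then called in females and 11544, 9814 and 1385 in males. The median difference of the 7 rows was -0.39, 0.01 and -0.18 in the 3 comparisons, beside 0.14, -0.08 and 0.04 over all rows. The members thus did not share a direction. Without the 2 arrays that went against their sex label, the counts over both sexes were the same, against 49%, 41% and 12.1% of all rows. The difference between 78 and 8 weeks was then -0.76 for Igf2 and -0.57 for H19.

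**Figure D5:**
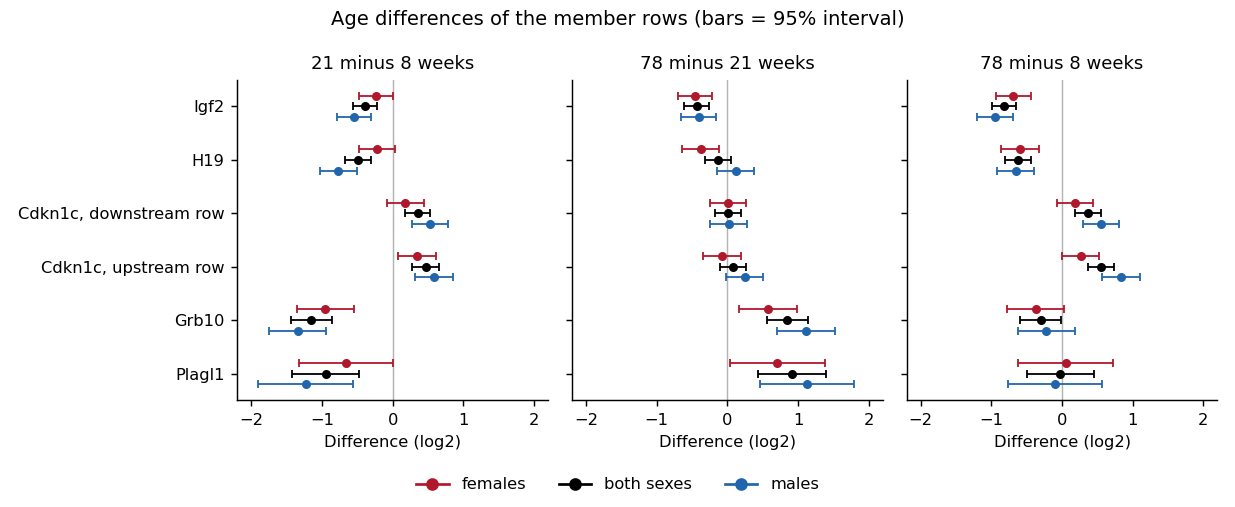
Difference between ages on the log2 scale for 6 member rows (the EST row, near background, is not drawn), with its 95% interval from limma, for females, both sexes and males. Igf2 and H19 lie below 0 and the Cdkn1c rows above it at 78 against 8 weeks, while Grb10 and Plagl1 change sign between the first and the second step.

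The names without a row were looked for among the probes of the arrays. Dlk1, a membrane protein related to the Notch ligands, had 1 probe at chr6:134034500-134034559, which was well above background on 0 of 30 arrays, with 10-heart means of -5.71, -5.46 and -5.61. Mest, a paternally expressed gene of the hydrolase fold family, had no probe by symbol or RefSeq accession. Peg3, a zinc finger protein, had no probe by symbol. However, 3 probes on the plus strand of chromosome 1 are described in the scanner files as paternally expressed 3 while carrying the name Apeg3, so their gene is uncertain. The one at chr1:65602354-65602413 was well above background on 10, 9 and 10 hearts at 8, 21 and 78 weeks, with means of -0.45 ± 0.18 (SD), -1.31 ± 0.97 and -0.48 ± 0.23. Its 21-week mean was -0.68 in females and -1.94 in males. The lowest value, -3.46, was that of male replicate 2, the weakest array. The probe at chr1:65601526-65601585 was well above background on 9, 2 and 9 hearts, and the one at chr1:65603423-65603482 on none.

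Within each age, the sexes were compared on the authors' tables, the comparison for which the study was designed. None of the 7 rows passed the adjusted threshold at 8, 21 or 78 weeks with limma, against 0.102%, 0.0511% and 0% of all rows. At an unadjusted p under 0.05 there was 1 row at each age with limma, against 5.74%, 15.9% and 5.65% of all rows. With the analysis of variance of the authors' methods there were 1, 2 and 1 rows, for which the share of all rows is not given here. The row at 8 weeks was Igf2, 1.17-fold lower in females (difference -0.22 with a 95% interval from -0.40 to -0.04, limma adjusted p = 0.769), and 4 of 5 males were above all females.

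At 21 weeks it was H19. In the table its log2 values were 2.76, 2.66, 2.69, 2.67 and 2.71 in females and 2.40, 2.02, 2.49, 2.55 and 1.89 in males. The sexes did not overlap, as in 4.05% of all rows, and H19 was 1.34-fold higher in females (exact permutation p = 0.00794, limma adjusted p = 0.28). Over all rows the median difference at this age was -0.14. The 75th percentile signal was 39.9 to 104.8 on the male and 82.7 to 123.1 on the female arrays at 21 weeks. On values rebuilt from the scanner files, which name each rat, the difference was 0.44, and without male replicate 2, the weakest array, it was 0.38. The part of signal strength in it was not tested otherwise.

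At 78 weeks it was the upstream Cdkn1c row, 1.44-fold lower in females (difference -0.53 with a 95% interval from -0.91 to -0.15, exact permutation p = 0.0159, limma adjusted p = 0.856). Both libraries that went against their label lay on the far side of their labelled group: the one labelled female had the highest value of the females, 1.19, and the one labelled male the lowest of the males, 0.87. Without them the difference was -0.72 ± 0.14 (SE), and the sexes no longer overlapped, as in 6.99% of all rows (exact permutation p = 0.0286, the smallest for 4 against 4, and limma adjusted p = 0.279, with 0.0316% of all rows called). The Igf2 difference between the sexes at 78 weeks was 0.03, with a 95% interval from -0.35 to 0.41, and that of H19 was -0.07, with an interval from -0.43 to 0.28. Without the 2 arrays these were -0.01 and -0.13, and that of the downstream Cdkn1c row was -0.44 (unadjusted limma p = 0.0159, exact permutation p = 0.0571, limma adjusted p = 0.488) in place of -0.31.

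Each member well above background on at least 24 arrays was set against 16431 rows that were so too, over the 30 arrays. These correlations carry the age differences and the shared slides, and are a description. Closest to Igf2 were Tfrc (r = 0.90), Ccdc102a (0.88) and Lims1 (0.87). Closest to H19 were Tspan2 (0.88), Cdh13 (0.87) and Ptgfrn (0.87). Closest to the downstream Cdkn1c row were Fuca1 (0.89), Dnase1l3 (0.87) and Ccl19 (0.87), and closest to Grb10 were Wdfy3 (0.91), LOC681839 (0.89) and Usp34 (0.89).

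Other imprinted genes showed no common direction between 8 and 78 weeks. Of 34 with a row, out of 47 listed, 3 fell and 3 rose, with a median difference of 0.00. This share of calls is close to the 14.8% of all rows. Slc38a4, an amino acid transporter imprinted in rodents, was called lower (limma adjusted p = 1.99e-07). It was well above background on 10, 8 and 4 hearts at the 3 ages, so no fold is given. Ddc, an enzyme of amine synthesis, fell 1.40-fold (limma adjusted p = 0.000263). Nap1l5 rose 2.09-fold (limma adjusted p = 0.00149) and Slc22a3, an organic cation transporter, rose 1.51-fold (limma adjusted p = 0.000103).

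Of the binding proteins, receptors and signaling partners of the IGF pathway, 3 of 19 fell between 8 and 78 weeks and 0 rose, with a median difference of -0.06. This share of calls is close to the 14.8% of all rows. Igf2bp2, which binds Igf2 mRNA among others, fell 1.83-fold (limma adjusted p = 1.85e-07). Igf2bp3, a fetal member of the same family, was called lower too (limma adjusted p = 0.0117), but was well above background on 5, 0 and 1 hearts at the 3 ages, so no fold is given. Igfbp3, the main carrier of IGFs in blood, fell 1.28-fold (limma adjusted p = 0.0132). Igf2r, the imprinted receptor that clears Igf2, was 1.55-fold lower at 21 than at 8 weeks (limma adjusted p = 4.42e-06) and 1.62-fold higher at 78 than at 21 weeks (limma adjusted p = 8.91e-07). It was chosen after its values were seen.

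Genes of the cell cycle fell with age beside Igf2. Of 27 with a row, 16 fell between 8 and 78 weeks and 0 rose, with a median difference of -0.66 against 0.04 over all rows. Of all rows, 6.89% were called lower and 7.9% higher in this comparison. Racgap1, needed for cytokinesis, fell 2.51-fold (limma adjusted p = 9.3e-08) and Top2a, the topoisomerase of dividing cells, fell 2.42-fold (limma adjusted p = 2.65e-06). Ccnb2, a mitotic cyclin, and Tpx2, a spindle factor, were well above background on 0 of the 10 arrays at 78 weeks and were at least 1.70-fold and at least 1.67-fold lower there, bounds set against the lowest signals well above background on the same arrays (limma adjusted p = 7.61e-06 and 0.000155). Of 5 other inhibitors of cyclin-dependent kinases, Cdkn1a fell 1.40-fold (limma adjusted p = 0.021) and Cdkn1b fell 1.15-fold (limma adjusted p = 0.0193). Cdkn1c thus did not move with these nearest relatives. Cdkn2a was called higher (limma adjusted p = 0.00894). It was well above background on 4, 5 and 9 hearts at the 3 ages, so no fold is given. Of 13 Notch ligands, receptors and targets, Hes1 fell 1.46-fold (limma adjusted p = 0.0116) and Jag1 rose 1.15-fold (limma adjusted p = 0.0356). No other gene of that list was called, so its share of calls is close to the 14.8% of all rows.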

How the data were processed

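RNA from 30 rat hearts was labeled with Cy3 and hybridized to Agilent whole rat genome arrays of 45018 spots, 1 array per rat on 8 slides. The authors scanned the slides and deposited 1 scanner file per array from Agilent Feature Extraction, with spot intensities on a linear scale, and 1 table per age of intensities they had scaled to the 75th percentile. A table row was found to be the mean log2 of the processed signals of the probes sharing an accession (99.7% of rows matched within 0.002). At 21 weeks the 5 male columns name the group but no rat, and were used by group only. The tables were normalized separately. Therefore, ages were compared on the scanner files: log2 of the processed signal minus the array's 75th percentile over non-control spots, averaged over the probes of a row. No filter on dim spots was applied and no spot of a member was saturated.

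limma 3.58.1 in R 4.3.3 was fitted to 6 groups of sex and age, with the mean of both sexes as contrast, two-sided, and Benjamini-Hochberg adjustment over 25308 rows at 0.05. Sexes were compared within each age on log2 of the tables in the same way, over all rows of a table. Exact permutation tests were two-sided, 5 against 5. Correlations used 100000 permutations within groups. Folds are ratios on the linear scale of log2 differences. The fit was tested on simulated data. Named genes were the 8 members with all rows, up to 4 genes of each list with the largest called difference between 78 and 8 weeks, and the 3 rows most like each member. The members and lists were chosen with earlier results of these data known. The number of arrays limits the precision.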

Additional observations from a re-analysis of the deposited data

Results flagged for a closer look

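Of 36 groups of 5 hearts tested for a single value far from the rest, 3 held one, where chance gives about 1 in 20. Female replicate 4 at 78 weeks was the highest of its group in Igf2, at 4.22 against 3.61 for the nearest heart, a gap of 0.85 of the group's range. The same heart was the highest in H19, at 3.54 against 2.98 for the nearest, a gap of 0.80 of the range. Female replicate 5 at 78 weeks was the highest in Plagl1, at -2.25 against -2.92, a gap of 0.78 of the range. Outside the tables, the probe at chr1:65602354-65602413 described as paternally expressed 3 was well above background on 29 of 30 arrays.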

How the results depend on the processing

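Precision rests on 5 hearts per group, and Plagl1 on signals near background. The count of member rows called (6 between 8 and 21 weeks, 3 between 21 and 78, 4 between 8 and 78) was 2, 0 and 2 with normexp background correction, where 3949, 1420 and 1014 of all rows were called in place of 12502, 11018 and 3743. It was 1 and 2 between 8 and 21 and between 8 and 78 weeks in females on their own, and 1 between 21 and 78 weeks within scan day 2 (3035 of all rows called). Between 8 and 21 weeks 4048 of all rows were called with the scan day as a term. In that fit the day is estimated from the 78-week arrays, the only age scanned on both days. Between 8 and 78 weeks 6419 of all rows were called within scan day 1. Leaving out 1 array at a time gave 6 to 6, 3 to 4 and 4 to 4 calls, with 4 only without female replicate 4 at 78 weeks, and 0 to 0 between the sexes. Of all rows called, the share lower at the older age was 40.0%, 55.2% and 46.6%. It was 19.3%, 65.3% and 39.4% with the raw median signal, 34.9% between 21 and 78 weeks with normexp, and 66.4% between 21 and 78 and 75.8% between 8 and 78 weeks from the authors' tables joined. The median of all rows moved from 0.04 to 0.19 between 8 and 78 weeks with normexp.

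Some single values turned sign. The Plagl1 difference between 21 and 8 weeks became 0.17 with normexp and 0.029 with the raw median signal, and that between 78 and 8 weeks became 0.24, 0.11 and, in females, 0.05. The H19 difference between 78 and 21 weeks became 0.03 with the scan day as a term, 0.03 within scan day 2 and 0.12 in males. The downstream Cdkn1c difference between 78 and 21 weeks became -0.10 and -0.10 in these day fits, -0.073 from the authors' tables and -0.19 for 1 probe, and the upstream one -0.001 from the tables and -0.076 in females. The first Grb10 probe gave -0.061 between 78 and 21 weeks. Between the sexes, normexp at 21 weeks gave 0.16 and 0.11 for the downstream and upstream Cdkn1c rows, -0.31 for Plagl1 and -0.007 for Grb10. The raw median signal gave -0.19 at 21 and -0.015 at 78 weeks for Plagl1. Igf2 at 78 weeks became -0.013 with quantile normalization, -0.36 with normexp and -0.013 without the 2 arrays whose Y-linked RNA went against the label. With single arrays left out, the difference ranged from -0.026 to 0.056 for the downstream Cdkn1c row between 78 and 21 weeks and from -0.13 to 0.065 for Plagl1 between 78 and 8 weeks. Between the sexes it ranged from -0.18 to 0.004 for H19, -0.081 to 0.14 for Igf2 and -0.13 to 0.16 for Plagl1 at 78 weeks, and from -0.29 to 0.093 for Plagl1 at 8 weeks. The cause was not tested in any of these.

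Females and males share replicate numbers, and same-numbered hearts were on the same slide. The numbers were not used as pairs, since only 8 of 15 same-numbered pairs correlated above 0.1 in their deviations (range -0.10 to 0.30). As a hint from the data, 9 of 15 matched their own number best, among them 5 of 5 at 78 weeks. With the replicate number as a block, 6, 3 and 4 member rows were called between the ages, against 49.3%, 43.6% and 14.7% of all rows. Between the sexes 0 member rows were called at each age. Over all rows the block left 5 called between the sexes at 8 weeks in place of 28, and 5 at 21 weeks in place of 17, both from values rebuilt from the scanner files.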
